A study of Mus musculus with 4 samples.

Results

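The 42 genes described here are 24 genes of mitosis and 18 genes of DNA replication and of the step from G1 into S phase, measured in B16-F10 cells, a mouse melanoma line. They were taken from a list of symbols, and each was found on the array through the RefSeq accession of its probes. Where a gene had more than 1 probe, its brightest probe (by mean over the 4 arrays) stood for it. All 42 were found, out of 23462 gene symbols on the array. The cells were kept in medium with 10% fetal bovine serum, which all groups share, and were cultured for 24 h without recombinant Cdh1 (control, 2 arrays) or with 100 ng/mL of it (Cdh1, 2 arrays). Mouse E-cadherin, which joins epithelial cells to each other, has the gene symbol Cdh1, and the labels give the protein no other name. The cultures came as 2 independent sets, each of 1 control and 1 Cdh1 culture, so that every gene has 4 values. The labels name 1 cell line and no animal, and the p-values measure the spread between these few cultures alone.

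Dividing cells copy their DNA in S phase and separate it in mitosis, and the genes for these steps are transcribed in waves. E2F transcription factors drive the replication genes late in G1, among them those of the MCM helicase, which is loaded at origins by Cdc6 and Cdt1 and set in motion by Cdc45 and the GINS complex. The mitosis genes follow in G2, through promoters that often hold a CCAAT box and a cell cycle homology region (CHR). They encode the cyclin B and Cdk1 kinase, the kinases and motors of the spindle, and the checkpoint that restrains the anaphase-promoting complex. Melanoma lines in culture cycle fast, so that transcripts of both waves are abundant. In RNA from a whole culture, the share of cells in a phase and the amount of RNA per cell cannot be told apart.

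Promoter windows of RefSeq (build GRCm38.p6, 250 bases before to 50 bases after a gene's start) were searched for the letters of these elements on both strands. The letters searched for the CHR were TTTGAA and also TTCGAA, and those for the CCAAT box were its own name. For E2F the first form searched was TTCCCGC, the next was TTGGCGC, the next was TTCGCGC and the last was TTGCCGC. An E2F match on the opposite strand can overlap a CCAAT match. The table held 21 windows of 20 mitosis genes and 15 windows of 14 replication genes. CHR letters were in 16 of the 21 mitosis windows (76.2%), in 3 of the 15 replication windows (20%) and in 19.2% of all 32851 windows. E2F letters showed the opposite distribution, with 3 mitosis windows (14.3%), 9 replication windows (60%) and 9.57% of all windows. CCAAT letters were in 85.7% of mitosis windows, 66.7% of replication windows and 37.4% of all. These shares describe letters and were not tested. The windows of 4 genes, chosen as stated after them, are shown with CHR, CCAAT and E2F letters in capitals:
Aurka: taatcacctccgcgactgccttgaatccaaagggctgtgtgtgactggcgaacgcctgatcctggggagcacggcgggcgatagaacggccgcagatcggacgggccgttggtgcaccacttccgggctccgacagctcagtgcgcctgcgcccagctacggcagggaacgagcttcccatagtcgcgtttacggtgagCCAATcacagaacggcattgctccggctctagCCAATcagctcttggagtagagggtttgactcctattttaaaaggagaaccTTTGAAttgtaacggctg
Ccnb1: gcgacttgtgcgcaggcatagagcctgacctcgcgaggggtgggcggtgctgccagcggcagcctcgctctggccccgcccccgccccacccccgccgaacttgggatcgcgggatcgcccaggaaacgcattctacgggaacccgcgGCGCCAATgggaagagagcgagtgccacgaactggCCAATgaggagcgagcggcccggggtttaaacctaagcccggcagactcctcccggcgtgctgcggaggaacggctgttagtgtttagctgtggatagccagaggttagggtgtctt
Mcm6: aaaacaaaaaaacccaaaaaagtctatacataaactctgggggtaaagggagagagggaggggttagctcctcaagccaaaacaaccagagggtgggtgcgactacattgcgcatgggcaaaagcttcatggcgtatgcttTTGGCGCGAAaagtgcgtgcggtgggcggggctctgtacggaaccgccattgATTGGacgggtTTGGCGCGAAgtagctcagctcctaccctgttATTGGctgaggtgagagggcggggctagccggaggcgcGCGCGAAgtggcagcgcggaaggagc
Cdc6: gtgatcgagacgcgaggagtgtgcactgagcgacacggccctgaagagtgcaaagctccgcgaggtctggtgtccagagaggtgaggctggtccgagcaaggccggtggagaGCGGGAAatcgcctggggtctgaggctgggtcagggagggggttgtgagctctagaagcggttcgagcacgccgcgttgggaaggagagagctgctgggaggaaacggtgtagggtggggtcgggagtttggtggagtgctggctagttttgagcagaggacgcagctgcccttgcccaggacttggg
The first belongs to Aurka, a spindle pole kinase (chr2:172370521-172370820, minus strand), and has 2 CCAAT boxes upstream of the start and TTTGAA at base 33 after it. That of Ccnb1, the gene of cyclin B1 (chr13:100786437-100786736, minus strand), has 2 CCAAT boxes, 1 of which overlaps E2F letters. The window of Mcm6, a helicase subunit (chr1:128359656-128359955, minus strand), has 5 E2F matches, 2 pairs of which overlap, and 2 CCAAT boxes on the opposite strand. The last, of Cdc6 (chr11:98907901-98908200, plus strand), has 1 E2F match on the opposite strand. Aurka and Mcm6 were chosen as the brightest of their class whose window held CHR or E2F letters, and Ccnb1 and Cdc6 after their values were seen. Cdc6 was picked only among replication genes that were called between the culture sets below and whose window held E2F letters. The windows of E2f1 and Mcm2, which were also called there, held no E2F letters. Other forms of the E2F site and bases outside the windows were not searched. Mcm4, the remaining called gene, had no window.

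**Figure D1:**
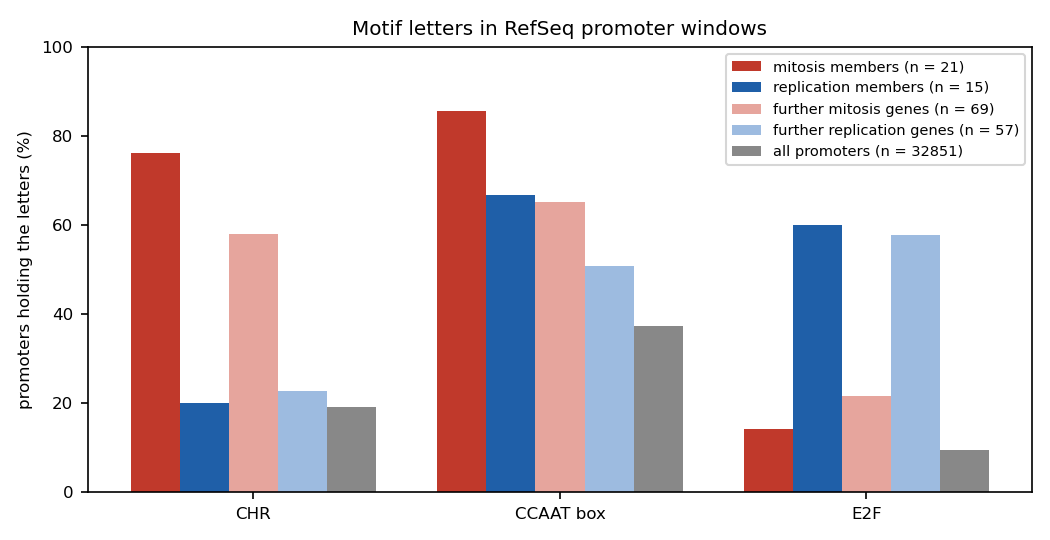
Bars give the percent of RefSeq promoter windows that hold the letters of the CHR, the CCAAT box or E2F, for the mitosis and replication genes, for the further genes of both kinds, and for all 32851 windows. CHR letters were in 76.2% of mitosis windows against 20% of replication windows, and E2F letters in 14.3% against 60%.

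The arrays were Agilent 1-colour arrays, 4 on 1 slide read in 1 scan, with 59.29% to 61.33% of non-control spots well above background and 0 saturated. Levels are log2 signals relative to an array's 75th percentile, so that a level of 0 equals that percentile, and a probe's level is read across arrays. Probes differ in how strongly they bind, so the order of levels between genes has no meaning here. All 7 melanocyte markers (Pmel, Mlana, Tyr, Tyrp1, Dct, Mitf and Sox10) were well above background on all 4 arrays. Of the other lineages' markers, Ptprc (leukocytes), Epcam and Krt8 (epithelium), Dcn (fibroblasts) and Cdh5 and Kdr (endothelium) were above it on none. Above it on all 4 arrays were 2 of 5 leukocyte markers (Itgam and Cd3e), 2 of 4 epithelial, 3 of 4 fibroblast and 1 of 3 endothelial markers. All 42 members were well above background on all 4 arrays, so that the filter on dim probes removed none. The probes of 6 members lay in the last 24 of 384 spot rows at the edge of the array, which were also left out as an alternative: Ccnb1, Cenpe, Nusap1, Ube2c, Ccne2 and E2f1. Each member's probes were printed as single spots. Among 290 probes with repeat spots, the median SD of the repeats within an array was 0.043.

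**Figure D2:**
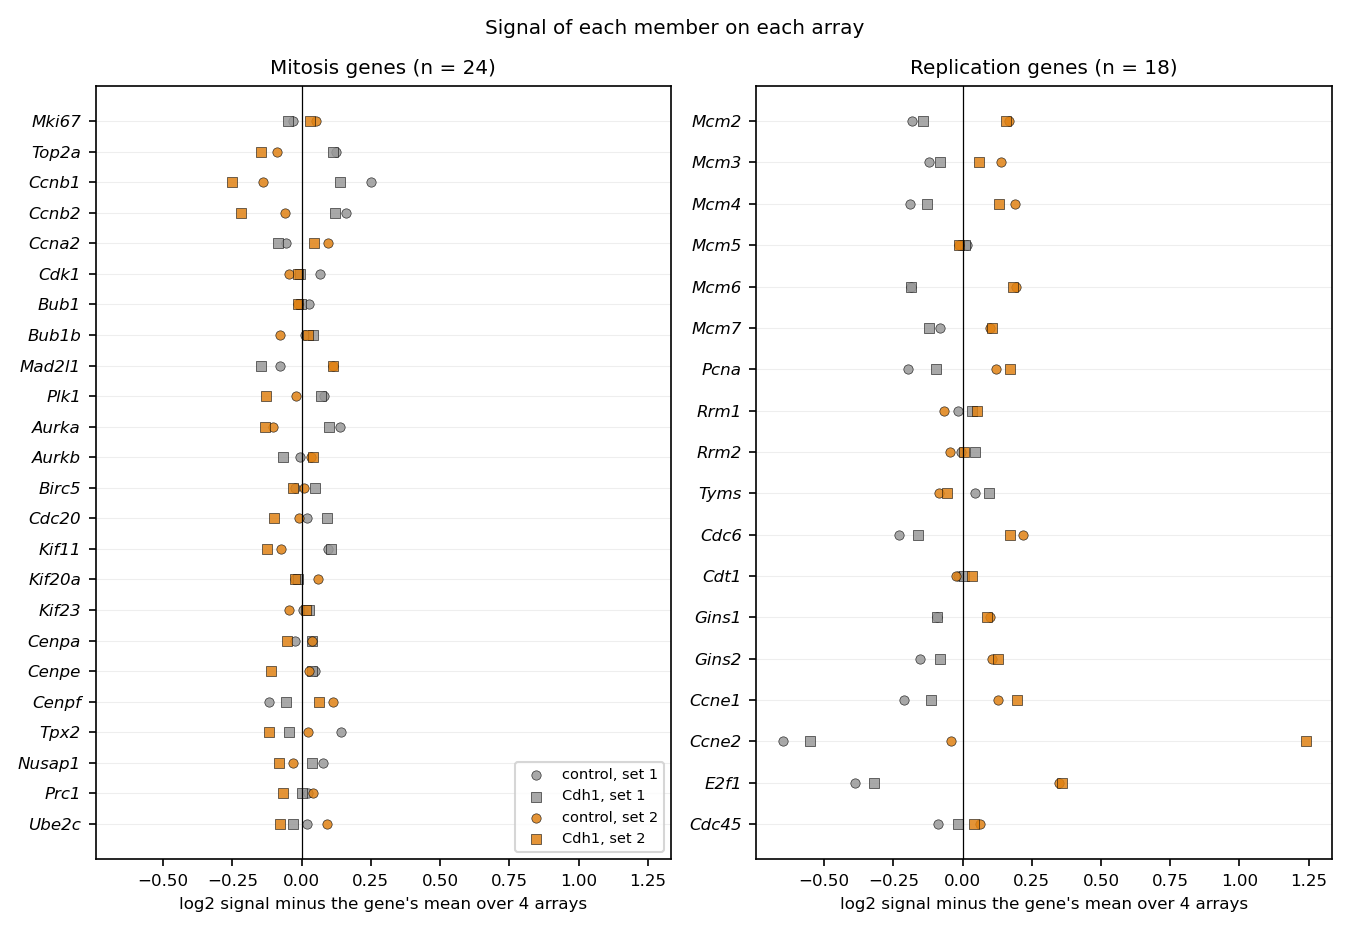
Each row is a gene, and each point is the log2 signal on 1 of the 4 arrays minus the gene's mean over them (circles, control; squares, Cdh1; grey, set 1; orange, set 2). Circle and square of a colour lie within 0.19 of each other for all genes but Ccne2, and set 2 lies to the right of set 1 for E2f1, Cdc6 and Mcm6 and to the left for Ccnb1 and Ccnb2.

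The first comparison asked whether recombinant Cdh1 changed the transcripts of the division machinery. No difference between Cdh1 and control cells was called for any member. Of 42 members, 0 were called (limma with Benjamini-Hochberg adjustment over 32568 probes, n = 2 per group), where 0% of all probes were called. At an unadjusted p under 0.05 there were 0 members, against 1.72% of probes and 1.1% of genes taken by their brightest probe, and the lowest unadjusted p, that of Tpx2, was 0.216 (limma). Apart from Ccne2, the largest difference was 0.17 on the log2 scale, or 1.12-fold, and the largest in any single set was 0.19. The median half-width of the unadjusted 95% confidence interval was 0.34 in this fit, whose error includes the difference between the sets, and 0.2 with the set as a block. In the blocked fit the lowest unadjusted p among members was 0.0716 (limma), and 0 members were called. With 2 arrays in each group, the smallest two-sided p of an exact permutation test that ignores the pairing by set is 0.333.

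Among the mitosis genes, the median difference (Cdh1 minus control) was -0.03, with -0.02 in set 1 and -0.05 in set 2, and the median over all 14450 genes tested was -0.01. Of the 24 genes, 13 were lower with Cdh1 in both sets, 2 were higher in both and 9 were mixed. Over all genes tested, 31.6% were lower in both sets and 19.7% were higher in both. The lowest was Tpx2, which targets Aurora A to spindle microtubules, at 2.47 in control and 2.28 in Cdh1 cells of set 1 and at 2.35 and 2.21 in set 2. Both Cdh1 arrays thus lay below both control arrays, giving -0.17 (SE 0.11, limma adjusted p 1). Ccnb1 stood at 3.85 and 3.74 in set 1 and at 3.46 and 3.35 in set 2, a difference of -0.11 with an SE of 0.22 (limma adjusted p 1). The groups overlapped, because both arrays of set 2 were below both of set 1. Its other probes, outside the edge rows, gave -0.19 and 0.03. Ube2c, the ubiquitin-conjugating enzyme of the anaphase-promoting complex, went from 3.22 to 3.17 in set 1 and from 3.29 to 3.12 in set 2 (difference -0.10, SE 0.10, limma adjusted p 1). Both Cdh1 arrays were lower than both control arrays.

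The groups of mitosis genes showed no other pattern. The cyclin and Cdk1 genes lay between -0.11 and -0.02, and the kinases and passenger proteins (Plk1, Aurka, Aurkb and Birc5) between -0.06 and 0.01. Checkpoint and anaphase genes ranged from -0.10 (Ube2c) to 0.06 (Bub1b), motors and spindle genes from -0.17 (Tpx2) to 0.04 (Kif23), and centromere and chromosome genes from -0.07 (Cenpe) to 0.01 (Cenpf). Birc5, the gene of survivin, read 6.0 and 6.07 in control and Cdh1 cells of set 1 and 6.03 and 5.99 in set 2, so that the groups overlapped. Kif11, the motor that pushes spindle poles apart, read 0.26 and 0.27 in set 1 and 0.09 and 0.04 in set 2. Mki67, the gene of the proliferation antigen Ki-67, differed by -0.03 in each set. The 2 members higher in both sets were Bub1b, by 0.03 and 0.10, and Kif23, by 0.02 and 0.05.

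The replication genes had a median difference of 0.03 for Cdh1 minus control, with 0.05 in set 1 and 0.01 in set 2. Of the 18 genes, 9 were higher with Cdh1 in both sets, 2 were lower in both and 7 were mixed. The sign of this small median depends on the scaling: centred on the median of each array it was -0.02. The 6 MCM genes lay between -0.02 and 0.02. Those of nucleotide supply, Rrm1, Rrm2 and Tyms, were 0.08, 0.05 and 0.04, each higher in both sets. Rrm1, the large subunit of ribonucleotide reductase, went from 3.35 to 3.40 in set 1 and from 3.30 to 3.42 in set 2. Both Cdh1 values were the higher ones, and the SE was 0.10 (limma adjusted p 1). Ccne1, the gene of cyclin E1, went from 3.05 to 3.15 and from 3.39 to 3.46, with a difference of 0.09 and an SE of 0.19 (limma adjusted p 1), and the groups overlapped. E2f1 differed by 0.07 in set 1 and 0.01 in set 2. Without overlap between the groups, 3 replication genes (Rrm1, Rrm2 and Cdt1) and 2 mitosis genes were higher with Cdh1, where 6.1% of all genes were, and 3 mitosis genes (Tpx2, Prc1 and Ube2c) were lower, where 8.36% were.

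Ccne2, the gene of cyclin E2, was the exception in size. It read -5.59 and -5.49 in control and Cdh1 cells of set 1 and -4.98 and -3.70 in set 2, so that 1 array, Cdh1 of set 2, stood above the rest. Cdh1 minus control came to 0.69 (SE 0.68, limma adjusted p 1), made up of 0.10 in set 1 and 1.28 in set 2. Without the Cdh1 array of set 2 it was -0.20. That value sets the Cdh1 cells of set 1 against the controls of both sets, and the difference within set 1 was 0.10. The probe, far below the 75th percentile, lay in spot row 376 near the edge of the array, and was the gene's only probe. The part of the edge in this value was not tested.

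**Figure D3:**
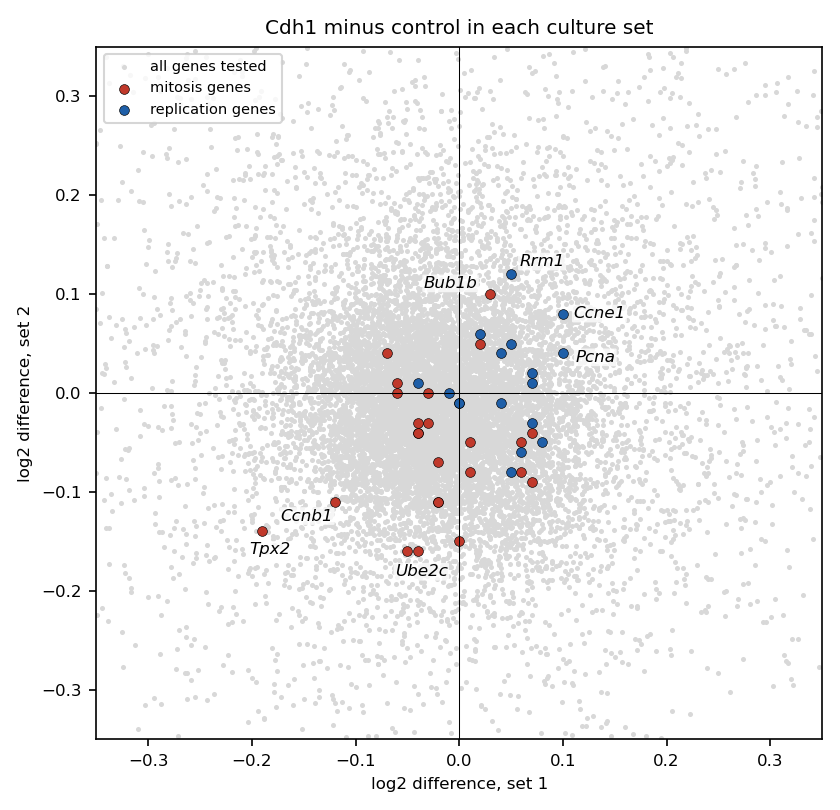
Each point is a gene; the horizontal axis gives the log2 difference of Cdh1 minus control in set 1 and the vertical axis that in set 2 (red, mitosis genes; blue, replication genes; grey, all genes tested within the axes). The members lie near 0 on both axes, with Tpx2 furthest to the left at -0.19 and -0.14, and Ccne2, at 0.10 and 1.28, lies outside the axes.

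The second comparison set the independent culture sets against each other, each with its control and its Cdh1 array. Here 5 replication genes rose in set 2, while no mitosis gene was called. E2f1, Cdc6, Mcm6, Mcm2 and Mcm4 were called, all higher in set 2, by 1.25-fold to 1.64-fold (limma with Benjamini-Hochberg adjustment over 32955 probes, n = 2 per set). The 2 arrays of a set are its control and its Cdh1 culture, and each set was made once. The p-values of this comparison measure the spread within sets, not the spread between repeated sets. These 5 of 42 members compare with 15.5% of all probes called (6.82% higher, 8.64% lower) and with 19% of genes taken by their brightest probe, so that calls were no more frequent among the members than elsewhere. Called higher were 5 of the 18 replication genes, against 7.53% of 14640 genes tested by their brightest probe, and 0 of the 24 mitosis genes. Called lower were 0 of 42, against 11.5% of genes. The calls depended on having 4 arrays. With any 1 array left out, a set keeps 1 array. The calls of these 5 were then lost, and so were most or all calls among all probes. With the group as a block, 1 member was called, E2f1 (limma adjusted p 0.0435), and 2165 of 32955 probes were. With no filter on dim probes, 0 members and 0 of 56601 probes were called. These losses were thus not particular to the members.

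The replication genes as a class had a median difference (set 2 minus set 1) of 0.22, with 0.27 in control cells and 0.22 in Cdh1 cells, against -0.03 over all genes. Of the 18, 13 were higher in set 2 without overlap between the sets, where 31.7% of all genes were, and 2 were lower, where 41.3% were. At an unadjusted p under 0.05 (limma), which 36.6% of probes and 40.4% of genes met, 11 were higher, where 16.9% of genes were, and 0 lower, where 23.5% were. The largest of the called differences was that of E2f1, the transcription factor of the G1 to S step. Its level was 0.71 in control and 0.78 in Cdh1 cells of set 1 and 1.45 and 1.46 in set 2, so that both arrays of set 2 were above both of set 1. E2f1 was thus higher by 0.71 (SE 0.06, limma adjusted p 0.0125), or 1.64-fold. Its only probe was in row 377, at the edge, and the part of the edge was not tested. Cyclin E1, which acts with Cdk2 at the same step, was also higher on both arrays of set 2, by 0.33 with an SE of 0.07, and was not called (limma adjusted p 0.0566).

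The helicase genes did not move as one. Mcm6 read 5.54 on both arrays of set 1, and 5.92 and 5.91 in control and Cdh1 cells of set 2. The sets did not overlap, and Mcm6 rose by 0.37 (SE 0.05, limma adjusted p 0.0285). Mcm2 stood at 3.90 and 3.94 in set 1 and at 4.25 and 4.24 in set 2, a rise of 0.32 with an SE of 0.05 (limma adjusted p 0.0376). Mcm4 stood at 3.73 and 3.79 in set 1 and at 4.11 and 4.05 in set 2, a rise of 0.32 with an SE of 0.06 (limma adjusted p 0.046). For both genes each array of set 2 was above each of set 1. Mcm3 and Mcm7 had a difference of 0.20 each and were not called (limma adjusted p 0.106 and 0.0808). Mcm5, the remaining subunit of the ring, differed by -0.03 with a 95% confidence interval of -0.17 to 0.12.

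Of the genes that load and activate the helicase, Cdc6 was called. It stood at 0.69 and 0.76 in control and Cdh1 cells of set 1 and at 1.14 and 1.09 in set 2, without overlap, a rise of 0.39 with an SE of 0.06 (limma adjusted p 0.0346). Gins2, Gins1 and Cdc45 had differences of 0.24, 0.19 and 0.10 and were not called. Cdt1, which loads the helicase together with Cdc6, differed by 0.01 (95% confidence interval -0.15 to 0.17), with overlapping sets. Pcna, the sliding clamp of the DNA polymerases, had a difference of 0.30 with an SE of 0.07 and was not called (limma adjusted p 0.0601). Of the genes of nucleotide supply, Rrm1 and Rrm2 differed by -0.01 and -0.04 with overlapping sets. Tyms, the gene of thymidylate synthase, differed by -0.14 with a 95% confidence interval of -0.29 to 0.02, and none of the 3 was called. Among the replication genes with a promoter window, the 8 with E2F letters ranged from -0.04 to 0.39, with a median of 0.11. The 6 without ranged from -0.14 to 0.71, with a median of 0.31, so that rising genes were found in both. This split was not tested.

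For the mitosis genes the median difference of set 2 minus set 1 was -0.05, near that of all genes, and it was 0.00 with the authors' scaling. Without overlap, 11 of the 24 were lower in set 2 and 5 were higher, where 41.3% and 31.7% of all genes were, so that the count of lower genes was near the background. The lowest was cyclin B1. In set 2 its gene Ccnb1 was below both arrays of set 1 by a mean of 0.39 on the log2 scale, or 1.31-fold (SE 0.08, limma adjusted p 0.0507), and it was not called. Ccnb2, the gene of cyclin B2, read 4.28 and 4.24 in set 1 and 4.06 and 3.90 in set 2, a difference of -0.28 with an SE of 0.08 (limma adjusted p 0.095). Ccna2, whose product acts in S phase and G2, had a difference of 0.14, and Cdk1, the kinase these cyclins activate, of -0.06. The differences of Aurka and Top2a, the gene of the topoisomerase that untangles chromosomes, were -0.23 each, and that of Kif11 was -0.20. In the other direction, Mad2l1, a spindle checkpoint protein, had a difference of 0.22 and Cenpf, a kinetochore protein, of 0.18. None of these passed the adjusted threshold (limma adjusted p 0.0673 to 0.165 for Aurka, Top2a, Kif11, Mad2l1, Cenpf and Ccna2). Under other settings some were: Mad2l1 with the authors' table, Ccnb1 with probes above background on all 4 arrays, Mad2l1 and Aurka with the mean of a gene's probes, and these and others with normexp or the trend and robust prior. Birc5 differed by -0.03, Bub1 by -0.02, Cenpa by -0.01 and Ube2c by 0.01.

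**Figure D4:**
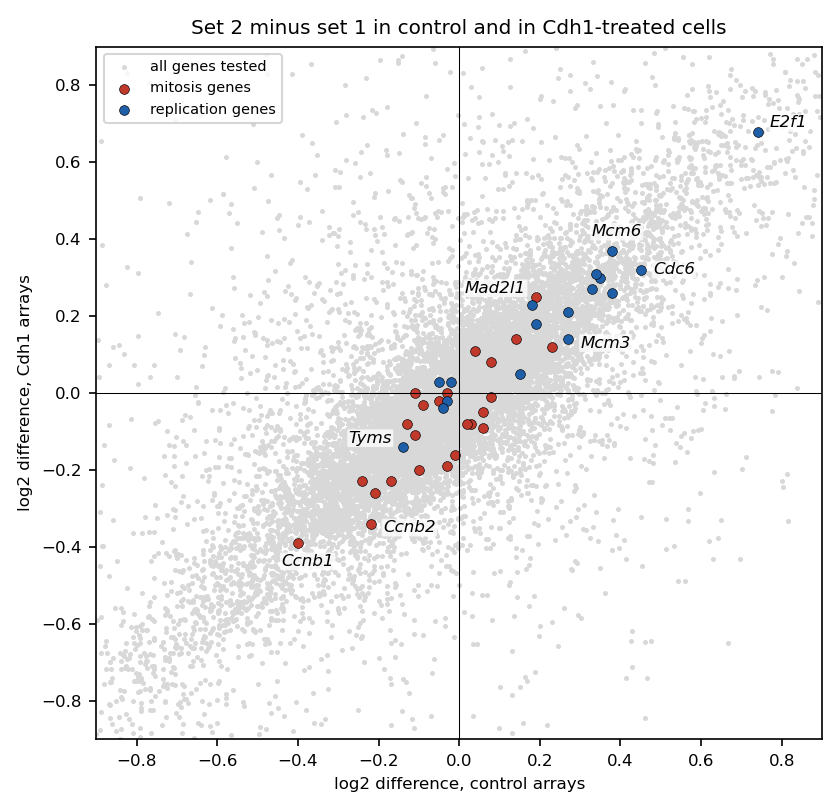
Each point is a gene; the horizontal axis gives the log2 difference of set 2 minus set 1 in control cells and the vertical axis that in Cdh1 cells (red, mitosis genes; blue, replication genes; grey, all genes tested within the axes). E2f1 lies at 0.74 and 0.68, Cdc6 at 0.45 and 0.32 and Ccnb1 at -0.40 and -0.39, and Ccne2, at 0.61 and 1.78, lies outside the axes.

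Transcripts outside the cell cycle moved between the sets as well. Tyr, the gene of tyrosinase, fell by 1.77 in set 2 (limma adjusted p 0.00776), Pmel by 0.42 (0.028) and Mitf by 0.39 (0.0399). The other melanocyte markers were not called: Mlana, Tyrp1 and Dct had differences of -0.21, -0.15 and -0.12, and Sox10 had 0.20, higher on both arrays of set 2. The summed signal of the 7 melanocyte markers, in units of an array's 75th percentile, was 1520 to 1550 in set 1 and 1320 on both arrays of set 2. The fibroblast markers Col1a1 and Pdgfra fell by 1.22 and 0.41 (limma adjusted p 0.0216 and 0.034), Col1a2 had a difference of -0.32 and was not called (0.0556), and Dcn was not well above background. The sum of the 4 fibroblast markers, 3.31 to 3.52 in set 1 and 2.65 to 2.77 in set 2, is mostly the signal of Col1a2. The sum of the 5 leukocyte markers, 11.4 to 11.5 in set 1 and 9.83 to 11.1 in set 2, is mostly that of Itgam, which was not called. Neither sum speaks for its whole list. The part of these differences in those of the members was not tested.

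Further probes of the same genes gave a check within each culture that the choice of the brightest probe did not use, although they share its RNA. All 8 replication genes with more than 1 probe had differences between the sets of the same sign on each probe, and 9 of the 10 such mitosis genes did, Birc5 being the exception at -0.03 and 0.01. The other probes of the replication genes had a median difference of 0.29. Of these 9 probes, 8 were higher in set 2 without overlap and 1 was lower, where 31.7% and 41.3% of genes were. Called higher were 3, where 6.82% of probes were: a further probe of Mcm6 at 0.61 (limma adjusted p 0.0229), of Cdc6 at 0.51 (0.0172) and of Gins2 at 0.40 (0.0435). The other probes of Ccnb1 gave -0.23 and -0.14, smaller than its brightest probe, which lay in the edge rows. Of the 11 other probes of mitosis genes, 3 were higher and 4 lower without overlap, and 0 were called.

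**Figure D5:**
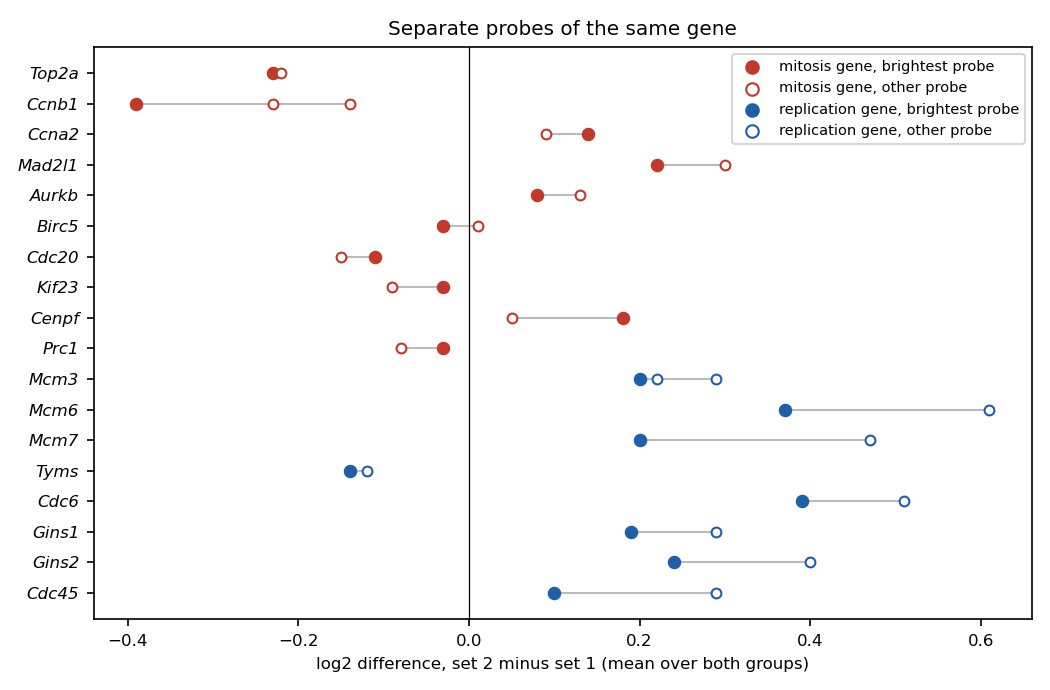
The horizontal axis gives the log2 difference of set 2 minus set 1 for each probe of the 18 members with more than 1 probe (filled, the brightest probe; open, others). Probes of a gene lie on the same side of 0 for all but Birc5, and the second probes of Mcm6, Cdc6 and Gins2 lie further from 0 than the first.

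Replication and mitosis genes were then compared within each array, as the mean level of the replication genes other than Ccne2 minus the mean level of the mitosis genes. The sign and size of this difference on 1 array depend on the probes, and only its change between arrays is read. This value was 0.13 in control and 0.19 in Cdh1 cells of set 1, and 0.39 and 0.45 in set 2. It was higher in set 2 on both arrays, and higher with Cdh1 in both sets by a smaller amount. Among members outside the edge rows it was 0.31, 0.37, 0.53 and 0.58 in the same order, and with Ccne2 included -0.36, -0.29, -0.08 and 0.06. The values describe these 4 cultures and have no test, since the genes were chosen with earlier results known. Under each change of scaling, the median difference of replication genes exceeded that of mitosis genes by 0.06 or 0.07 for Cdh1 minus control and by 0.27 to 0.32 for set 2 minus set 1. For Cdh1 minus control the order of the classes turned without control set 1 (-0.08) and without Cdh1 set 2 (-0.09). It was 0.19 without Cdh1 set 1 and also without control set 2. Each of these fits sets an array of 1 set against arrays of both sets. The difference between the sets thus enters them, and they cannot tell how stable the order is.

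Other genes of the same processes were read from lists of 52 replication and 71 mitosis genes, of which 52 and 70 were found and well above background on all 4 arrays. For Cdh1 against control, 0 of either list were called, and the medians were 0.01 and -0.01. The largest rises were 0.17 for Cdc7, the kinase that fires origins, and 0.12 for the polymerase subunit gene Pold3. The largest falls were -0.23 for Orc2, of the origin recognition complex, and -0.17 for E2f3. Among the further mitosis genes Cenpi and Mastl had 0.11 and 0.10, and Racgap1 and Cdc27 -0.12 and -0.09. For each of these the limma adjusted p was 1. Fzr1, whose product is also called Cdh1 in work on the anaphase-promoting complex, differed by -0.01 (SE 0.11, limma adjusted p 1). The dim signal of the E-cadherin gene Cdh1 differed by -0.03 (SE 0.12, limma adjusted p 1).

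Between the sets, 6 further replication genes were called higher in set 2 and 0 lower, and of the further mitosis genes 1 was called higher and 1 lower. Over all genes, 7.53% were called higher and 11.5% lower. By calls, the 6 of 52 higher do not stand far above the background, and 1 of 70 each way lies below it. The medians were 0.14 and -0.01, against -0.03 over all genes. Without overlap between the sets, 34 of the 52 replication genes were higher in set 2 and 10 were lower, where 31.7% and 41.3% of all genes were. Of the 70 mitosis genes, 18 were higher and 29 were lower. At an unadjusted p under 0.05 (limma), 18 of the 52 were higher and 4 lower, where 16.9% and 23.5% of genes were. E2f2, another E2F activator, rose by 0.53 with an SE of 0.07 (limma adjusted p 0.0269), from 1.46 and 1.57 in set 1 to 2.01 and 2.08 in set 2. Uhrf1, which brings DNA methylation to replicated DNA, rose by 0.47 (limma adjusted p 0.0301). At the other end, the histone chaperone genes Chaf1b and Asf1b had differences of -0.30 and -0.28 and were not called (limma adjusted p 0.0566 and 0.0579). Of the mitosis genes, Cenpm rose by 0.66 (limma adjusted p 0.0139) and Ckap2, which stabilises microtubules, fell by 0.39 (0.0378), while Arhgap11a at 0.29 and Zwint at -0.33 were not called. With the group as a block, E2f2 (limma adjusted p 0.0508), Uhrf1 (0.054) and Ckap2 (0.0641) were no longer called, while Cenpm was (0.0463). Ckap2 also missed the threshold with quantile normalization (0.0527) and the authors' table (0.06), and each of these 4 genes missed it with no filter on dim probes and with any 1 array left out.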

How the data were processed

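The 1-colour arrays (design build mm9) went through Agilent Feature Extraction (12.0.3.1), per the file headers, and the authors' deposited scanner files hold a processed intensity per spot, background-subtracted and detrended within an array. Their deposited table holds the same intensity multiplied by 1 factor per array (0.8735 to 0.9304). Here, processed intensities were put on the log2 scale, the 75th percentile of each array was subtracted, and values were averaged over the spots of a probe, without spots marked as outliers (115 to 143 per array). Probes that the scanner marked well above background throughout 1 group (for sets, 1 set) or more were tested with lmFit and eBayes of limma (3.58.1, R 4.3.3) without a block, with Benjamini-Hochberg adjustment and a threshold of 0.05, after a check on simulated data. Accessions were matched to RefSeq genes of GRCm38.p6, and 59.65% of 56605 probes had a symbol. Sets pair the arrays, per the labels; deviations of arrays of a set from their group means correlated at 0.744 over 31155 probes.

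Named with values on every array were the brightest and dimmest member of each class and the members called. So were the 3 largest rises and falls with Cdh1 among members whose sets moved alike. Of further lists, the 2 largest each way were named by their differences, as were Fzr1 and Cdh1. Among these, only E2f2 was also given with its value on every array. Pcna, Ccnb2 and others were added after their values were seen. The members, lists and rules were chosen with earlier results of these data known. Normexp (offset 50) used the median spot signal. Python 3.11.15 with pandas 2.3.3 and matplotlib 3.10.9 was used.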

Additional observations from a re-analysis of the deposited data

How the results depend on the processing

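No member was called for Cdh1 against control under any alternative run, which were quantile normalization, median centring, normexp, the authors' table, no filter, a filter asking for signal above background on each of 4 arrays, the array without its last 24 rows, the trend and robust prior, the mean of a gene's probes, the set as a replicate block and each array left out (0 to 0 members and 0 to 0 probes). With the set as a replicate block the lowest adjusted p among members was 0.724 (limma), and that block changed no call. The median of mitosis genes for Cdh1 minus control, -0.03, was -0.08 with median centring, -0.01 with the authors' table and -0.08 to 0.01 with 1 array left out. That of replication genes, 0.03, was -0.02 with median centring and -0.09 to 0.15 with 1 array left out. Fits with 1 array left out assume that the lone array of a group varies like the others. For Cdh1 minus control they also set an array of 1 set against arrays of both sets, so that the difference between the sets enters their values. For set 2 against set 1, the 5 called members became 1 with the group as a block, 2 with median centring, 12 with the mean of a gene's probes, 22 with the trend and robust prior, 19 with normexp, 0 without the filter on dim probes and 0 to 1 with 1 array left out; the 5095 called probes became 2165 with the group as a block, 11194 with the trend and robust prior, 9032 with normexp, 0 without the filter and 0 to 706 with 1 array left out. With the mean of a gene's probes 3556 of 14649 genes were called, and with median centring 4583 of 32955 probes. Leaving out an array leaves fewer arrays, and no filter adds probes at background. Other causes were not tested. The median of replication genes for set 2 minus set 1, 0.22, was 0.26 with quantile normalization, 0.27 with the authors' table, 0.3 with normexp, 0.31 with the mean of a gene's probes and 0.21 to 0.25 with 1 array left out, and that of mitosis genes, -0.05, was 0.0 with the authors' table and -0.07 to -0.03 with 1 array left out. Of 222 values of 16 named genes for set 2 minus set 1, 0 turned direction. These genes were named for being called or for large differences in this same comparison, so a stable sign says little. Of the 158 of these values that used all 4 arrays, 21 lost their call and 24 gained one. For Cdh1 minus control, Fzr1, at -0.01, was 0.03 with normexp and 0.01 with the authors' table, and with 1 array left out it ranged from -0.05 to 0.03, Ccnb1 from -0.31 to 0.09, Ccne1 from -0.08 to 0.26, Ccne2 from -0.20 to 1.58 and Cdh1 from -0.12 to 0.05. Signal over background limits Ccne2 most, whose spots had a mean scanner error of 16.5%, against 10% for the other members.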
